A study of Mus musculus with 20 samples.

Results

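Transcripts of 9 integrin subunits were followed in sorted Treg and CD4+Foxp3- T cells of mice whose Treg cells had or lacked Tet2 and Tet3, the enzymes that oxidise methylated cytosine: the alpha chains Itga4, Itga6, Itgae, Itgal and Itgav and the beta chains Itgb1, Itgb2, Itgb3 and Itgb7. They were found by symbol as 9 of the 16740 genes in the table of pooled spleen and peripheral lymph nodes (pLNs) and 9 of the 16784 in the table of mesenteric lymph nodes (mLN). All 9 had reads in every library. No expression value enters that rule, but the 9 were chosen from the integrin family with earlier results of these tables known, and which values counted in the choice was not recorded. Their adjusted p-values are therefore given as a description beside the share of all genes that passed, and the number of members that passed is not read as support for anything. The mice were 14 weeks old and on the C57BL/6 background. WT mice carried Foxp3Cre, a YFP-Cre fusion expressed from the Foxp3 gene, and DKO mice carried the same allele with Tet2/3 fl/fl, so that Cre acts in cells that express Foxp3 and not in every T cell. Treg cells were sorted as CD4+YFP+ and CD4+Foxp3- T cells as CD4+YFP- cells, a gate that in DKO mice can include former Treg cells that no longer express Foxp3. There were 2 biological replicates of each of the 4 groups from spleen and pLNs and 3 of each from mLN. The 2 DKO mice of the former were littermates that differed in the severity of their splenomegaly.

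Integrins are adhesion receptors made of an alpha and a beta chain, and a cell presents only those pairs for which it makes both. The beta 2 chain with alpha L forms LFA-1, which binds ICAM molecules in T cell contacts and at the vessel wall. The beta 7 chain pairs with alpha 4 in the gut homing receptor for MAdCAM-1, or with alpha E (CD103) in a receptor for E-cadherin on epithelium. The beta 1 chain pairs with many alpha chains, among them alpha 4, which then binds VCAM-1, and alpha 6, which then binds laminin. The alpha v chain pairs with several beta chains, among them beta 1, beta 3, beta 5 and beta 8, and on Treg cells the pair with beta 8 is known for releasing active TGF-beta from its latent form.

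Library totals ran from 13525932 to 15253141 reads for spleen and pLNs and from 9998478 to 15449158 for mLN, so that 3 reads stood for 0.172 to 0.299 CPM (reads scaled by library size with TMM factors). Reads of Tet2 and Tet3 were counted over the whole genes, exons outside the deletion included, and do not check the genotype. In Treg cells, Tet3 lay at 69.03 to 86.5 CPM in WT against 48.37 to 73.32 CPM in DKO mLN, and at 30.56 to 30.97 CPM against 38.09 to 60.96 CPM in spleen and pLNs. The means of Tet2 there were 10.53 against 10.61 CPM in mLN and 1.594 against 5.031 CPM in spleen and pLNs. The sort was visible in 6 Treg markers, among them Foxp3 and Il2ra, whose summed level was 1510 to 2190 CPM in Treg cells and 133 to 707 CPM in CD4+Foxp3- T cells. DKO replicates differed more among themselves than WT replicates did, with a chi-square per gene of 14.9 to 87.7 in DKO pairs and 3.69 to 8.46 in WT pairs. In markers of plasma cells, DKO replicate 1 of spleen and pLNs (90.5 CPM in Treg and 123 CPM in CD4+Foxp3- T cells) and DKO replicate 2 of mLN (469 and 540 CPM) were the highest libraries of their tables, and values without them are given where they end a call or move it by over 1.5 times. No pair of replicates agreed within sampling noise. The authors' TPM, which also divide by gene length, moved the median gene against the CPM used here by 0.33 on the log2 scale in the comparison of DKO with WT Treg cells of spleen and pLNs and by 0.07 to 0.24 in the others. Fold changes are therefore read from CPM, and TPM serve to compare levels between genes. The 2 tables were made separately: the gene length implied by counts and TPM was 1.43 times longer for Itga6 and 1.34 times longer for Itgal in the mLN table. Itgb1 stood at a mean of 910.3 CPM in WT Treg cells of one table and 277.3 CPM of the other, at the same implied length. Tests were therefore kept within a tissue.

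Per length, the beta chains Itgb7 and Itgb2 were the most abundant members in WT Treg cells of both tissues, followed by Itgal in mLN and by Itgb1 in spleen and pLNs. In WT Treg cells of mLN, the mean TPM was 637 for Itgb7, 583 for Itgb2, 404 for Itgal, 152 for Itga4, 137 for Itgae, 121 for Itgb1, 102 for Itga6, 23.7 for Itgb3 and 14.4 for Itgav. In that order only Itga4 and Itgae overlapped with their neighbour in replicate range. In WT CD4+Foxp3- T cells of mLN, Itgb7, Itgb2, Itgal and Itga4 kept the first 4 places at 608, 510, 298 and 87.7 TPM, whereas Itgae moved to the last place at 3.43 TPM. In WT Treg cells of spleen and pLNs the order was Itgb7 (596 TPM), Itgb2 (413), Itgb1 (318), Itgal (271), Itgae (62.8), Itga6 (56.7), Itga4 (55.6), Itgb3 (18.4) and Itgav (11.9), and only Itga6 and Itga4 overlapped. In DKO Treg cells, Itga6 lay below Itga4 in spleen and pLNs at 24.2 against 82.2 TPM, and in mLN it lay at 25.4 TPM, with a range that overlapped that of Itgav at 19.2 TPM. The plot of all members by library shows the same values as CPM.

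**Figure D1:**
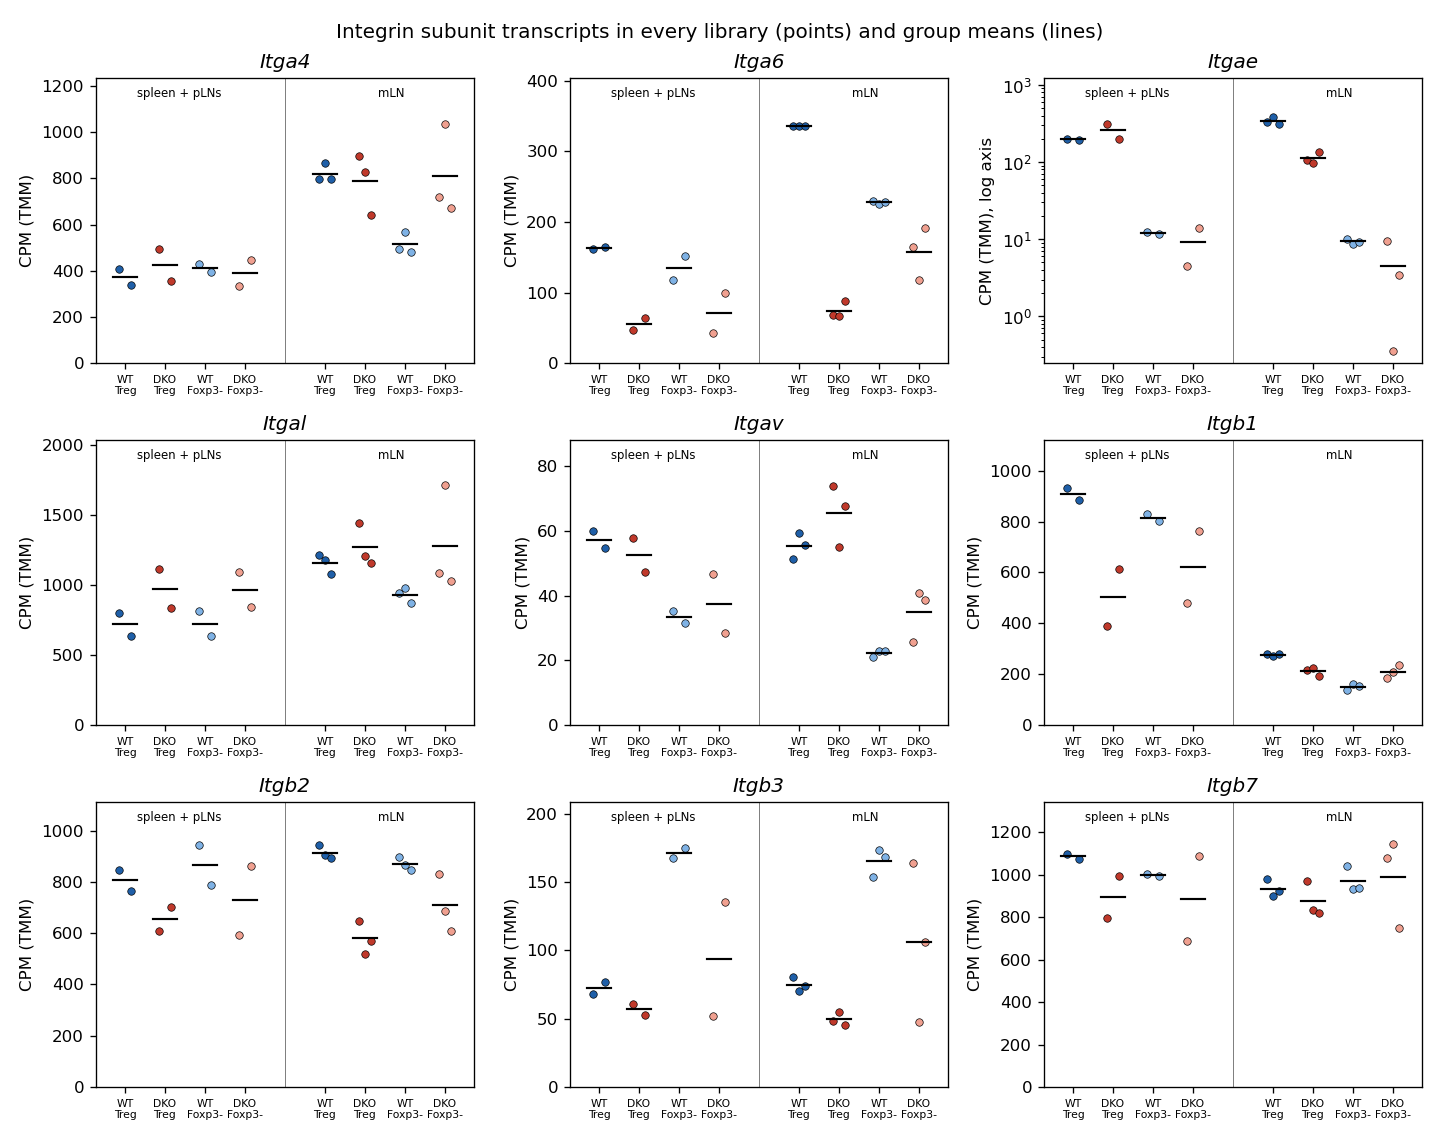
Level of each of the 9 integrin subunits in every library, as CPM after TMM scaling (vertical axis from 0, logarithmic for Itgae), by genotype and cell type in spleen and pLNs (left of the line) and in mLN (right of it); points are libraries and bars are group means. Itga6 is lower in every DKO Treg library than in every WT Treg library of the same tissue, and Itgae is above 90 CPM in every Treg library and below 15 CPM in every CD4+Foxp3- library.

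A gene was called when its adjusted p over all genes of a table did not exceed 0.05 and its fold change reached 1.5. Between DKO and WT Treg cells, 3 of 9 members were called in mLN (Itga6, Itgae and Itgb2, all lower in DKO), where 11.9% of all genes were called. For spleen and pLNs 1 of 9 was called (Itga6, lower in DKO), where 1.74% of all genes were. Between DKO and WT CD4+Foxp3- T cells, 2 of 9 were called in mLN (Itga4 and Itgav, both higher in DKO) against 3.43% of all genes. In spleen and pLNs none of the 9 was called by edgeR for this comparison against 0.819% of all genes, with 2 members under an unadjusted p of 0.05 and 0 called by DESeq2. Between WT Treg and WT CD4+Foxp3- T cells, 5 of 9 were called in mLN against 10.1% of all genes and 1 of 9 in spleen and pLNs against 4%. Between the same cell types of DKO mice, 4 of 9 were called in mLN against 11.2% and 1 of 9 in spleen and pLNs against 3.77%. The interaction, which asks whether the DKO effect differed between the cell types and had no minimum of fold, was called for 2 of 9 members in mLN against 0.28% of all genes. It was called by edgeR for none in spleen and pLNs against 0.00611%, with 0 members under an unadjusted p of 0.05 and 0 called by DESeq2.

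**Figure D2:**
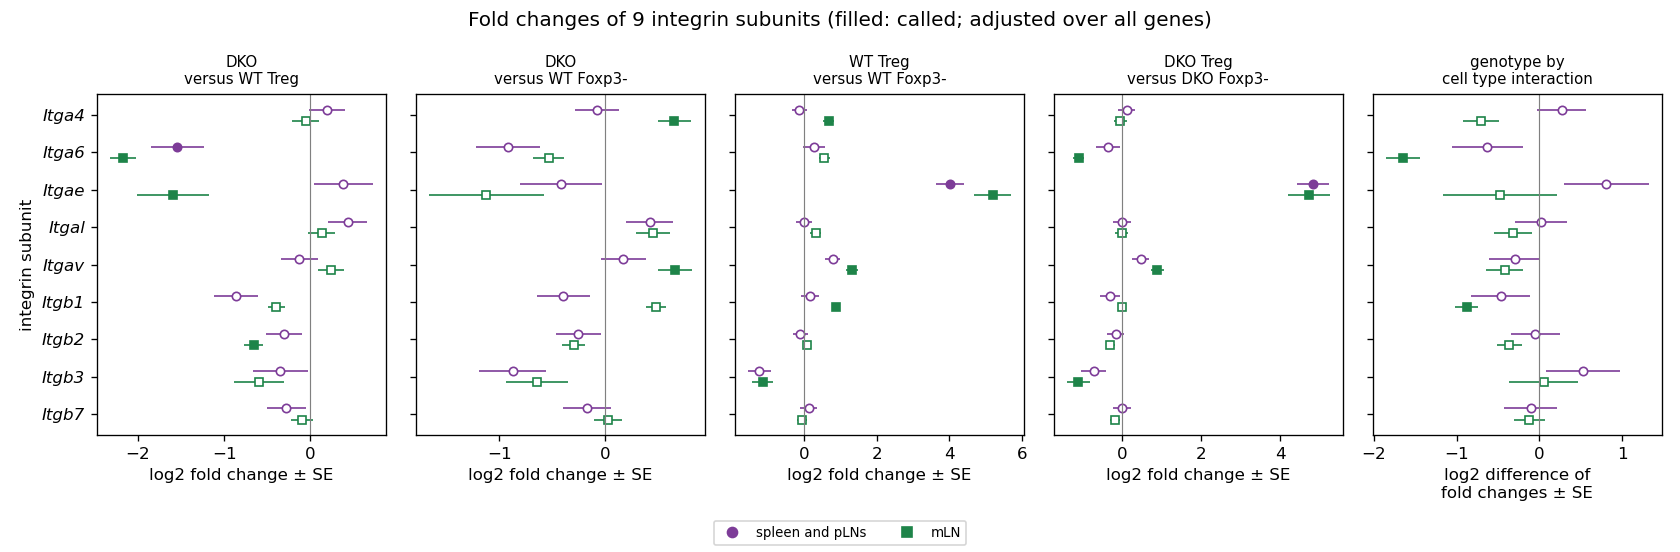
Log2 fold change of each member (horizontal axis, with its standard error) in the 4 comparisons, and in the last panel the difference of the DKO effects between Treg and CD4+Foxp3- T cells, for spleen and pLNs (circles) and mLN (squares); filled symbols were called, and each panel has its own axis range. Itgae stands at 4.02 to 5.20 between the cell types, and Itga6 has the lowest value between the genotypes, −2.18 in Treg cells of mLN.

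Itga6, the alpha chain of the laminin receptors (chr2:71583673-71696473, NCBIM37, plus strand), fell in DKO Treg cells of both tissues. In mLN its level was 335.7, 336.3 and 335.8 CPM in WT Treg libraries against 68.28, 66.84 and 87.92 CPM in the DKO ones. The groups were far apart, with a fold of 4.52 (log2 fold change −2.18, SE 0.15, adjusted p = 1.1e-05). The Treg cells of spleen and pLNs had 161.3 and 164.0 CPM in WT against 47.51 and 64.17 CPM in DKO mice, a fold of 2.91 (log2 fold change −1.54, SE 0.31, adjusted p = 0.033). Both DKO libraries lay below both WT libraries. The call did not hold without WT replicate 1 (adjusted p = 0.36), WT replicate 2 (0.42) or DKO replicate 1 (0.49). It was also lost under filterByExpr (0.13), with the robust prior (0.15), and on log2(TPM + 1) (0.17) and log2(TPM + 0.1) (0.13). Over all alternatives its adjusted p ran from 8.0e-13 to 0.49. In bulk samples such as these, fewer cells that express a gene and less RNA per cell cannot be told apart.

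CD4+Foxp3- T cells of DKO mice can include former Treg cells that carry the deletion. In this gate Itga6 was 230.4, 226.1 and 228.7 CPM in WT against 164.6, 118.1 and 191.8 CPM in DKO cells of mLN. The groups did not overlap, but the difference was not called (log2 fold change −0.53, SE 0.15, adjusted p = 0.063). It was called without DKO replicate 3 (log2 fold change −0.69, adjusted p = 0.023) and was −0.35 without DKO replicate 2 (adjusted p = 0.11). The levels in spleen and pLNs were 117.6 and 151.5 CPM in WT against 43.01 and 99.73 CPM in DKO cells (log2 fold change −0.92, adjusted p = 0.20). Without DKO replicate 2 that difference was called (log2 fold change −1.65, adjusted p = 1.2e-04), and without DKO replicate 1 it was −0.44 (adjusted p = 0.91). The DKO effect on Itga6 in mLN was larger in Treg than in CD4+Foxp3- T cells by 1.65 on the log2 scale (interaction −1.65, SE 0.21, adjusted p = 0.0073). That call held under all 21 alternatives, with values from −1.85 to −1.48. The order of the cell types turned with genotype. In WT cells of mLN, Itga6 was 1.47 times as high in Treg cells, below the minimum of fold (adjusted p = 0.020). In DKO cells it was 2.13 times lower in Treg cells than in CD4+Foxp3- T cells (log2 fold change −1.09, SE 0.15, adjusted p = 3.2e-04). Summed, the 6 Treg markers were also lower in DKO than WT Treg cells of mLN, at 1510 to 1760 against 1970 to 2190 CPM. Of the 6, 2 were called as lower there and 0 as higher, with a median log2 fold change of −0.10. In spleen and pLNs the sums overlapped, at 1640 to 1760 against 1650 to 1800 CPM. The part of these markers in the result was not tested.

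Itgb1, the beta chain that pairs with Itga6 (chr8:131209554-131257100, NCBIM37, plus strand), differed in a smaller measure. Its level in spleen and pLNs was 933.7 and 886.8 CPM in WT against 390.0 and 613.4 CPM in DKO Treg cells. The groups did not overlap, and the difference was not called (log2 fold change −0.86, SE 0.25, adjusted p = 0.092). It was called under DESeq2 (adjusted p = 0.040), with only the groups compared (0.036) and without DKO replicate 2 (log2 fold change −1.23, adjusted p = 0.030), and was −0.57 without DKO replicate 1 (adjusted p = 0.63). In mLN Treg cells it was 277.7, 273.4 and 280.7 CPM in WT against 217.7, 222.9 and 192.4 CPM in DKO, with an adjusted p of 0.013 and a fold of 1.31, under the minimum. In CD4+Foxp3- T cells of mLN the order was the opposite, with 138.9, 161.5 and 151.9 CPM in WT against 185.0, 209.3 and 237.4 CPM in DKO, an adjusted p of 0.019 and a log2 fold change of 0.48, also under the minimum of fold. The groups did not overlap in either cell type, and the DKO effects differed by 0.88 on the log2 scale (interaction −0.88, SE 0.14, adjusted p = 0.019). That call was lost on leaving out any 1 WT Treg replicate or WT CD4+Foxp3- replicate 1 or 3, at adjusted p-values of 0.060 to 0.085, and on log2(TPM + 1) (0.063) and log2(TPM + 0.1) (0.073), and kept its direction. The CD4+Foxp3- T cells of spleen and pLNs had 828.1 and 800.7 CPM in WT against 479.3 and 761.2 CPM in DKO mice, lower in both DKO libraries and not called (log2 fold change −0.39, SE 0.25, adjusted p = 0.58). That difference was called without DKO replicate 2 (log2 fold change −0.76, adjusted p = 0.035) and was −0.10 without DKO replicate 1 (adjusted p = 1). In WT cells of mLN, Itgb1 was 1.84 times higher in Treg than in CD4+Foxp3- T cells (log2 fold change 0.88, SE 0.10, adjusted p = 7.4e-05), and in DKO cells the means were 211 and 210.6 CPM, with a log2 fold change of 0.00 (SE 0.10).

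Itgae, which encodes CD103 (chr11:72904085-72960948, NCBIM37, plus strand), was the member that differed most between Treg and CD4+Foxp3- T cells. In mLN its level was 332.3, 388.5 and 307.9 CPM in WT Treg cells and 10.13, 8.776 and 9.177 CPM in WT CD4+Foxp3- T cells. It was thus 36.6 times higher in Treg cells (log2 fold change 5.20, SE 0.50, adjusted p = 2.3e-05), with no overlap. Libraries of spleen and pLNs had 196.6 and 195.5 CPM in WT Treg and 12.38 and 11.82 CPM in WT CD4+Foxp3- T cells, 16.2 times higher (log2 fold change 4.02, SE 0.40, adjusted p = 1.5e-04). In DKO cells it remained higher in Treg cells, by 26.4 times in mLN (log2 fold change 4.72, SE 0.52, adjusted p = 8.1e-05) and by 28.3 times in spleen and pLNs (log2 fold change 4.82, SE 0.41, adjusted p = 8.4e-05). Both calls held under all alternatives, but their size depended on single CD4+Foxp3- libraries. The mLN value was 5.97 without DKO CD4+Foxp3- replicate 1, 4.09 without replicate 2 and 5.56 on log2(TPM + 0.1). That of spleen and pLNs was 4.21 without DKO CD4+Foxp3- replicate 1, 5.84 without replicate 2 and 3.85 without both DKO replicate 1 libraries.

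Within Treg cells, the DKO libraries lay below the WT libraries for Itgae in mLN and above them in spleen and pLNs, and only the first difference was called. In mLN it fell 3.02 times, to 106.0, 98.46 and 136.7 CPM in the DKO Treg libraries (log2 fold change −1.59, SE 0.42, adjusted p = 0.018), all below every WT library. The call was lost without WT Treg replicate 1 (adjusted p = 0.052), WT Treg replicate 2 (0.066), DKO Treg replicate 1 (0.053) or DKO Treg replicate 2 (0.058), under DESeq2 (0.10), with the robust prior (0.061) and on log2(TPM + 0.1) (0.17), with log2 fold changes from −1.75 to −1.41 over the alternatives. The DKO Treg libraries of spleen and pLNs were at 311.9 and 200.9 CPM, above the WT libraries at 196.6 and 195.5 CPM, but the second by a narrow margin. The difference was not called (log2 fold change 0.39, SE 0.34, adjusted p = 0.58) and was 0.03 without DKO replicate 1 (adjusted p = 1). Whether the tissues differ was not tested. In CD4+Foxp3- T cells of DKO mice, Itgae was 9.58, 0.3518 and 3.447 CPM in mLN and 4.458 and 13.86 CPM in spleen and pLNs, and neither difference from WT was called (adjusted p = 0.29 and 0.75). The summed Treg markers in the same cells were higher in DKO than in WT mice, at 178 to 349 against 133 to 137 CPM in mLN and 226 to 707 against 200 to 221 CPM in spleen and pLNs. Of these 6 markers, 2 were called as higher in mLN and 0 as lower. In spleen and pLNs 0 were called as higher and 1, Lrrc32, as lower. The part of these markers in the result was not tested. Without DKO replicate 1 the mLN difference of Itgae was called (log2 fold change −2.40, adjusted p = 0.0039), and without DKO replicate 2 it was −0.51 (adjusted p = 0.56). Also called was that in spleen and pLNs without DKO replicate 2 (log2 fold change −1.44, adjusted p = 0.0026). Without DKO replicate 1 the latter turned to 0.19.

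Itgb7, the shared beta chain of CD103 and of the MAdCAM-1 receptor (chr15:102046426-102062366, NCBIM37, minus strand), was not called in any comparison. It lay between 820.2 and 979.8 CPM in Treg cells of mLN and between 747.6 and 1143 CPM in CD4+Foxp3- T cells there, and all its log2 fold changes in the 2 tissues were between −0.28 and 0.12. In Treg cells of spleen and pLNs it was 1100 and 1074 CPM in WT against 798.5 and 995.1 CPM in DKO mice. These groups did not overlap (log2 fold change −0.28, SE 0.23, adjusted p = 0.54). On the TPM scale that direction of Itgb7 turned, with means of 596 in WT and 615 in DKO. Its alpha partners differed in balance between genotypes in mLN. Itgae made up 47.3%, 49.1% and 45.4% of the summed TPM of Itgae and Itga4 in WT Treg cells of mLN and 20.2%, 20.4% and 31.4% in DKO Treg cells. That share was 51.0% and 55.3% in WT and 57.5% and 54.9% in DKO Treg cells of spleen and pLNs, with overlap. In CD4+Foxp3- T cells it was at most 6.23% in any library. On the side of the beta chains, Itgb7 made up 64.9% and 65.5% of the summed TPM of Itgb1 and Itgb7 in WT Treg cells of spleen and pLNs and 76.3% and 71.8% in DKO Treg cells. In mLN these shares were 83.7% to 84.7% in WT and 85.4% to 87.5% in DKO Treg cells, so the DKO libraries lay above the WT libraries in both tissues. The mean share in CD4+Foxp3- T cells was 65.8% in WT and 69.2% in DKO mice for spleen and pLNs, without overlap, and 91% in WT and 87.6% in DKO mice for mLN, with overlap. With 2 or 3 libraries in a group an exact permutation test of such a share, two-sided, cannot reach a p under 0.05, and none was made.

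**Figure D3:**
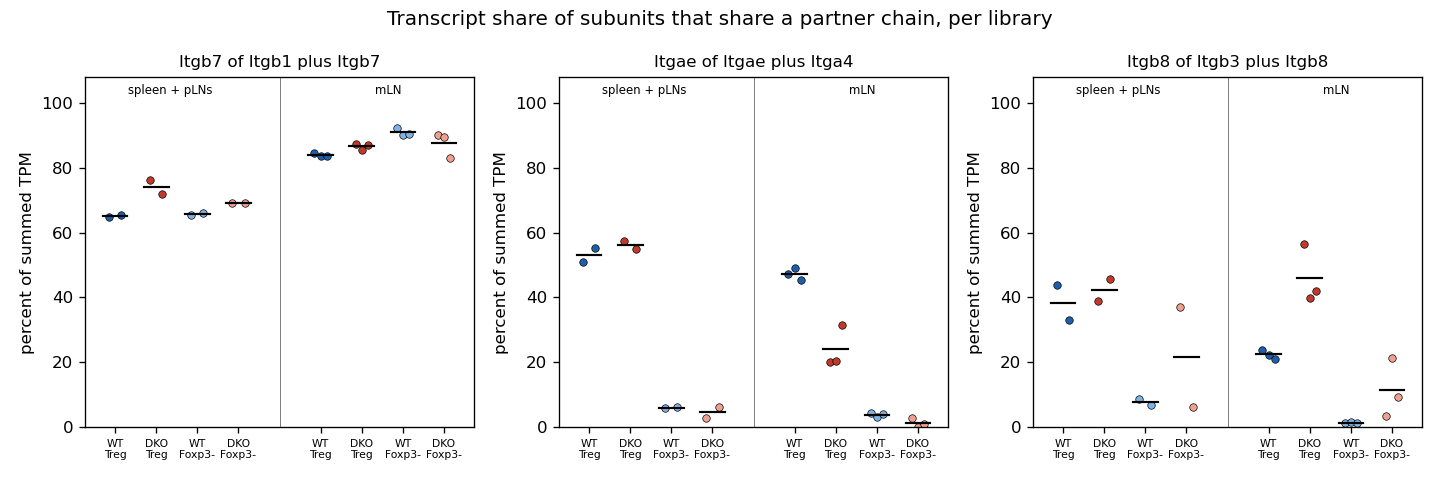
Share of one subunit in the summed TPM of a pair of subunits that have a partner chain in common (vertical axis, percent), by library (points) with group means (bars), in spleen and pLNs and in mLN. Itgae accounts for 45.4% to 49.1% of Itgae plus Itga4 in WT Treg cells of mLN and for 20.2% to 31.4% in DKO Treg cells, and Itgb8 for 21.0% to 23.9% and 39.7% to 56.5% of Itgb3 plus Itgb8 in the same groups.

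Itga4, the alpha chain of the receptors for VCAM-1 and MAdCAM-1 (chr2:79095583-79173280, NCBIM37, plus strand), and Itgav (chr2:83564554-83647073, NCBIM37, plus strand) rose in DKO CD4+Foxp3- T cells of mLN. Itga4 was 495.4, 566.1 and 480.6 CPM in WT against 718.8, 1037 and 671.1 CPM in DKO cells, a fold of 1.57 (log2 fold change 0.65, SE 0.16, adjusted p = 0.036). Itgav was 21.02, 22.75 and 22.84 CPM in WT against 25.64, 40.95 and 38.62 CPM in DKO cells, a fold of 1.58 (log2 fold change 0.66, SE 0.16, adjusted p = 0.037). All DKO libraries lay above all WT libraries for both genes, DKO replicate 2 highest. Both calls were lost on leaving out any 1 WT replicate (adjusted p = 0.089 to 0.15), without DKO replicate 2 (log2 fold change 0.45 and 0.54, adjusted p = 0.061 and 0.085) and, by the minimum of fold, without both DKO replicate 2 libraries (log2 fold change 0.43 and 0.52, adjusted p = 0.042 and 0.034). Both were lost too with only the groups compared (adjusted p = 0.15 and 0.16), on log2(TPM + 1) (0.13 and 0.18) and on log2(TPM + 0.1) (0.079 and 0.13). That of Itga4 was also lost with the robust prior (adjusted p = 0.057), and that of Itgav without DKO replicate 3 (0.086) and with the replicate number as a block (0.051). DKO replicate 2 is the library with 540 CPM of plasma cell markers, against 3.51 to 9.96 CPM in WT and 13.0 CPM in the lowest DKO library (3 of 4 markers had reads), and the part of such cells was not tested. In Treg cells of mLN, DKO and WT overlapped for Itga4 (642.4 to 899 against 795.3 to 865.6 CPM) and for Itgav (55.13 to 73.86 against 51.28 to 59.46 CPM).

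Between the cell types of mLN, Itga4 was 1.59 times higher in Treg than in CD4+Foxp3- T cells in WT mice (log2 fold change 0.67, SE 0.16, adjusted p = 0.011, and 0.054 without WT CD4+Foxp3- replicate 3), whereas in DKO mice the means were 789.4 and 809.1 CPM. Its interaction was not called (−0.71, SE 0.22, adjusted p = 0.22). All 8 libraries of spleen and pLNs had Itga4 between 332.5 and 496.1 CPM, and it was called there in no comparison.

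Promoter windows were given for 4 of the 9 members, Itga4, Itgav, Itgb1 and Itgb7, and all 4 are shown for their CpG content. The windows run from 250 bases before to 50 bases after the annotated start and come from RefSeq on GRCm38.p6, a build other than that of the gene positions. Capitals mark CpG dinucleotides, the sites at which TET enzymes act on methylated cytosine.
Itga4, chr2:79255176-79255475, plus strand: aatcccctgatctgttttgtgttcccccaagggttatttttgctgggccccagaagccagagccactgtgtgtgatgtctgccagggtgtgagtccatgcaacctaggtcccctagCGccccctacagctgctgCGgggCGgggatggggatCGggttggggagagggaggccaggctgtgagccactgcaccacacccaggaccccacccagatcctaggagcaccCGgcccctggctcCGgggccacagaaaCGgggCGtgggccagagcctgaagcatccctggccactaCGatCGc
Itgav, chr2:83724147-83724446, plus strand: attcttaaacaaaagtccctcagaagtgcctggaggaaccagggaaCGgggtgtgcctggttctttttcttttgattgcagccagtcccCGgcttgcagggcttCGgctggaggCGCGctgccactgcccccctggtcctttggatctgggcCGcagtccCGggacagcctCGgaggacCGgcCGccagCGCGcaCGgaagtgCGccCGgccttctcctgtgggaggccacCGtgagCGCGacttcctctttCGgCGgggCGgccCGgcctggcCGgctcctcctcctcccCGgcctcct
Itgb1, chr8:128685404-128685703, plus strand: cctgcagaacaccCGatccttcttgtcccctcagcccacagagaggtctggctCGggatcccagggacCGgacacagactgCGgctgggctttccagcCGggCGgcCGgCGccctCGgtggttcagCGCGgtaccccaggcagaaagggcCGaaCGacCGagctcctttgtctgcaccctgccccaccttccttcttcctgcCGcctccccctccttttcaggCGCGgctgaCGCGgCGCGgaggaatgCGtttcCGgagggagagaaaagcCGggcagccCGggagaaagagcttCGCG
Itgb7, chr15:102231886-102232185, minus strand: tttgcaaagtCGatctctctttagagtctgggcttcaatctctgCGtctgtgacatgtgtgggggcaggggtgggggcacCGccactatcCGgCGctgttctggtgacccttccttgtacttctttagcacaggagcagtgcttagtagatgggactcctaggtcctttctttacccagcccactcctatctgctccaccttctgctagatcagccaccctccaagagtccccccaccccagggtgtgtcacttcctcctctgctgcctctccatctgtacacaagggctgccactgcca
The windows held 10 CpG in Itga4, 24 in Itgav, 27 in Itgb1 and 5 in Itgb7, against a median of 7 in the 32851 windows of the same length, and 56.5%, 80%, 84.5% and 38% of those windows had fewer. The letters GGGCGG, a GC box, searched on both strands and overlapping CpG, were found once in each of the windows of Itga4, Itgav and Itgb1 and not in that of Itgb7, and 35.7% of all windows hold them. The letters TGTGGT, bound by RUNX factors, were found once in the window of Itga4 and not in the other three, against 16.8% of all windows. These matches are descriptions of letters, and the tables hold no methylation values.

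Itgav was also higher in Treg than in CD4+Foxp3- T cells. In WT mLN its Treg libraries were at 51.28, 59.46 and 55.68 CPM, 2.50 times the level of CD4+Foxp3- T cells (log2 fold change 1.32, SE 0.16, adjusted p = 1.3e-04). In DKO mLN the Treg libraries were at 73.86, 55.13 and 67.70 CPM, 1.87 times that level (log2 fold change 0.90, SE 0.15, adjusted p = 0.0015). The cell types did not overlap in either genotype. In WT spleen and pLNs the levels were 59.87 and 54.71 against 35.17 and 31.43 CPM, also without overlap, and the difference was not called (log2 fold change 0.78, SE 0.22, adjusted p = 0.073).

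Itgb3, a partner of Itgav (chr11:104469370-104531790, NCBIM37, plus strand), had the reverse order. In WT mLN it was 80.62, 70.38 and 73.88 CPM in Treg cells and 154.1, 173.4 and 168.6 CPM in CD4+Foxp3- T cells, 2.21 times lower in Treg cells (log2 fold change −1.14, SE 0.29, adjusted p = 0.019). The groups did not overlap, but the call was lost on leaving out any 1 WT Treg replicate or WT CD4+Foxp3- replicate 2 or 3 (adjusted p = 0.051 to 0.074), with the robust prior (0.058) and on log2(TPM + 1) (0.053). In DKO mLN it was 48.65, 54.84 and 45.39 CPM in Treg cells and 164.1, 47.64 and 106.4 CPM in CD4+Foxp3- T cells, where replicate 2 lay within the Treg range (log2 fold change −1.09, SE 0.30, adjusted p = 0.021). With the replicate number within genotype as a block this call was lost (log2 fold change −0.94, adjusted p = 0.056), as it was without DKO Treg replicate 1 or 3 or DKO CD4+Foxp3- replicate 1 or 3 (adjusted p = 0.050 to 0.071), with the smallest log2 fold change, −0.65, without DKO CD4+Foxp3- replicate 1. It was also lost with only the groups compared (adjusted p = 0.13), with the robust prior (0.063), and on log2(TPM + 1) (0.13) and log2(TPM + 0.1) (0.12). Between genotypes, the DKO Treg libraries of mLN all lay below the WT ones and the difference was not called (log2 fold change −0.59, SE 0.29, adjusted p = 0.18). Itgb3 in spleen and pLNs was 67.86 and 77.05 CPM in WT Treg cells and 167.3 and 174.7 CPM in WT CD4+Foxp3- T cells, without overlap (log2 fold change −1.24, adjusted p = 0.052). The DKO CD4+Foxp3- T cells of these organs had 51.73 and 135.2 CPM, both below WT and far from each other (log2 fold change −0.87, adjusted p = 0.24). Platelets and megakaryocytes also carry beta 3. Of their 8 markers 5 had reads in mLN and 7 in spleen and pLNs, and these summed to at most 0.671 CPM in any library, with Pf4 and Ppbp at 0 in Treg cells of WT mLN.

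Itgb8, another beta chain that pairs with Itgav and no member of the 9, was called as higher in DKO cells of mLN. In mLN it was 13.56, 10.83 and 10.53 CPM in WT against 33.84, 19.33 and 17.70 CPM in DKO Treg cells, a fold of 2.03 (log2 fold change 1.02, SE 0.28, adjusted p = 0.023). In CD4+Foxp3- T cells there it was 1.021, 1.418 and 1.097 CPM in WT against 3.016, 6.966 and 5.833 CPM in DKO, a fold of 4.42 (log2 fold change 2.14, SE 0.36, adjusted p = 0.0089). All DKO libraries lay above all WT libraries in mLN. Its level in Treg cells of spleen and pLNs was 28.21 and 20.26 CPM in WT against 20.89 and 23.89 CPM in DKO mice, with overlap. Of the summed TPM of Itgb3 and Itgb8, Itgb8 held 23.9%, 22.3% and 21.0% in WT and 56.5%, 39.7% and 42.1% in DKO Treg cells of mLN. It held 1.22%, 1.5% and 1.2% in WT and 3.32%, 21.4% and 9.28% in DKO CD4+Foxp3- T cells there. These shares leave out the other chains that can pair with Itgav. Itgb5 was 4.849, 4.300 and 3.443 CPM in WT against 11.30, 20.34 and 15.60 CPM in DKO Treg cells of mLN, without overlap and not called (log2 fold change 1.90, SE 1.04, adjusted p = 0.23). Itgb1 was at 93.7 TPM or more in every Treg library.

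Itgb2, the common chain of the leukocyte integrins (chr10:76992997-77028453, NCBIM37, plus strand), fell in DKO Treg cells of mLN. It was 942.2, 905.9 and 895.0 CPM in WT against 648.0, 519.8 and 570.9 CPM in DKO Treg cells, a fold of 1.58 (log2 fold change −0.66, SE 0.11, adjusted p = 0.0015). The groups did not overlap, and without both DKO replicate 2 libraries the fold went under the minimum (log2 fold change −0.58, adjusted p = 6.8e-04), as it did on log2(TPM + 1) (−0.49, adjusted p = 0.0061) and log2(TPM + 0.1) (−0.49, adjusted p = 0.0054). Spleen and pLNs had 846.7 and 765.0 CPM of Itgb2 in WT against 606.8 and 701.9 CPM in DKO Treg cells, again without overlap, and the difference was not called (log2 fold change −0.30, SE 0.21, adjusted p = 0.46). On the TPM scale this last direction turned, with means of 413 in WT and 421 in DKO.

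Itgal, the alpha chain of LFA-1 and a partner of Itgb2 (chr7:134439774-134478651, NCBIM37, plus strand), was not called in any comparison. In Treg cells it was 1212, 1177 and 1081 CPM in WT against 1443, 1207 and 1160 CPM in DKO mLN, which overlapped. Its level in Treg cells of spleen and pLNs was 799.2 and 638.1 CPM in WT against 1112 and 833.7 CPM in DKO mice, here without overlap (log2 fold change 0.44, SE 0.22, adjusted p = 0.30). In CD4+Foxp3- T cells of mLN it was 945.4, 975.0 and 869.4 CPM in WT against 1087, 1713 and 1026 CPM in DKO, without overlap (log2 fold change 0.46, SE 0.16, adjusted p = 0.14). The DKO means of Itgal were thus above the WT means in both cell types and tissues, while those of Itgb2 were below, and only the difference of Itgb2 in mLN Treg cells was called.

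Of the other integrin subunits with reads, 17 were tested in mLN and 16 in spleen and pLNs, and those called between genotypes were low and all higher in DKO. In DKO Treg cells of mLN, where 8.5% of all genes were called as higher, they were 6: Itgam, Itgax, Itgad, Itga2, Itga3 and Itgb8. Itgam, the alpha chain of Mac-1, which also pairs with Itgb2, was 0.8218, 0.4962 and 0.6886 CPM in WT against 2.979, 17.54 and 5.873 CPM in DKO Treg cells (log2 fold change 3.70, SE 0.80, adjusted p = 0.0068). It was the 1 other subunit called in spleen and pLNs, where 1.14% of all genes were called as higher in DKO Treg cells, at 0.9991 and 1.323 CPM in WT against 15.51 and 6.485 CPM in DKO Treg cells (log2 fold change 3.23, SE 0.46, adjusted p = 0.0057). Itgax, which encodes CD11c, had 0 reads in each of the 3 WT Treg libraries of mLN and 8, 7 and 2 in DKO, and Itgad had 3, 16 and 2 reads in DKO and 1, 0 and 0 in WT. Without both DKO replicate 2 libraries the call of Itgad was lost (adjusted p = 0.20) and the log2 fold change of Itgam was 2.70. Without both DKO replicate 1 libraries of spleen and pLNs that of Itgam was 2.47, and both values of Itgam were still called.

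Itga2, the alpha chain of a collagen receptor, was 2.548, 2.398 and 2.361 CPM in WT against 2.597, 8.265 and 9.228 CPM in DKO Treg cells of mLN (log2 fold change 1.45, SE 0.44, adjusted p = 0.033). Itga3 was 5.013, 5.541 and 3.443 against 11.46, 14.01 and 6.879 CPM (log2 fold change 1.20, SE 0.38, adjusted p = 0.041). No pair of these groups overlapped, Itga2 by a narrow margin. In DKO CD4+Foxp3- T cells of mLN, where 3.12% of all genes were called as higher, Itgb8 and Itgb5 were. The size of the change in Itgb5 rested on 1 library, with 57.70 CPM in DKO replicate 2 and 1.331 and 0.7955 CPM in the others. Its log2 fold change was 5.90, and 1.66 without both DKO replicate 2 libraries, where it was still called (adjusted p = 0.042). Between the cell types of WT mice, Itgb8 was called as higher and Itgax as lower in Treg cells of both tissues, and Itgam as lower in mLN. Between those of DKO mice, Itgb8 was called as higher in Treg cells of mLN and Itgax as lower in spleen and pLNs. Of 9 markers of myeloid cells, 8 had reads in each table, Lyz2 and Csf1r among them. Their sum was 2.56 to 4.44 CPM in WT against 9.27 to 48.9 CPM in DKO Treg cells of mLN, and 2.23 to 3.97 against 7.1 to 20.9 CPM in spleen and pLNs. Cd14 and Spi1 were at 0 in WT Treg cells of mLN and Mpo in those of spleen and pLNs. Of the DKO Treg libraries of mLN, replicate 2 had the most Itgam and the lowest of the 3 DKO sums, 9.27 CPM. The 5 NK markers summed to 9.86 to 11.4 CPM in WT against 74.9 to 162 CPM in DKO Treg cells of mLN, and to 8.84 to 9.99 against 91.7 to 125 CPM in those of spleen and pLNs. Of the 5, 1 was called as higher in mLN and 2 in spleen and pLNs. Klre1 was at 0 in DKO and Klra8 in WT Treg cells of mLN, and Klre1 in WT Treg cells of spleen and pLNs. Dendritic cell markers summed to 2.71 to 3.25 CPM in WT against 3.61 to 9.17 CPM in DKO Treg cells of mLN. Of 5 tested there, 1 was called as higher and 1 as lower. In spleen and pLNs they summed to 3.41 to 4.38 against 4.44 to 7.73 CPM (0 of 6 called). Sums of B cell markers overlapped in mLN, at 31.5 to 40.2 against 39 to 104 CPM (3 of 7 called as higher, 1 as lower). So they did in spleen and pLNs (34 to 38.2 against 21.8 to 60.4 CPM). The part of these cells in the results was not tested.

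**Figure D4:**
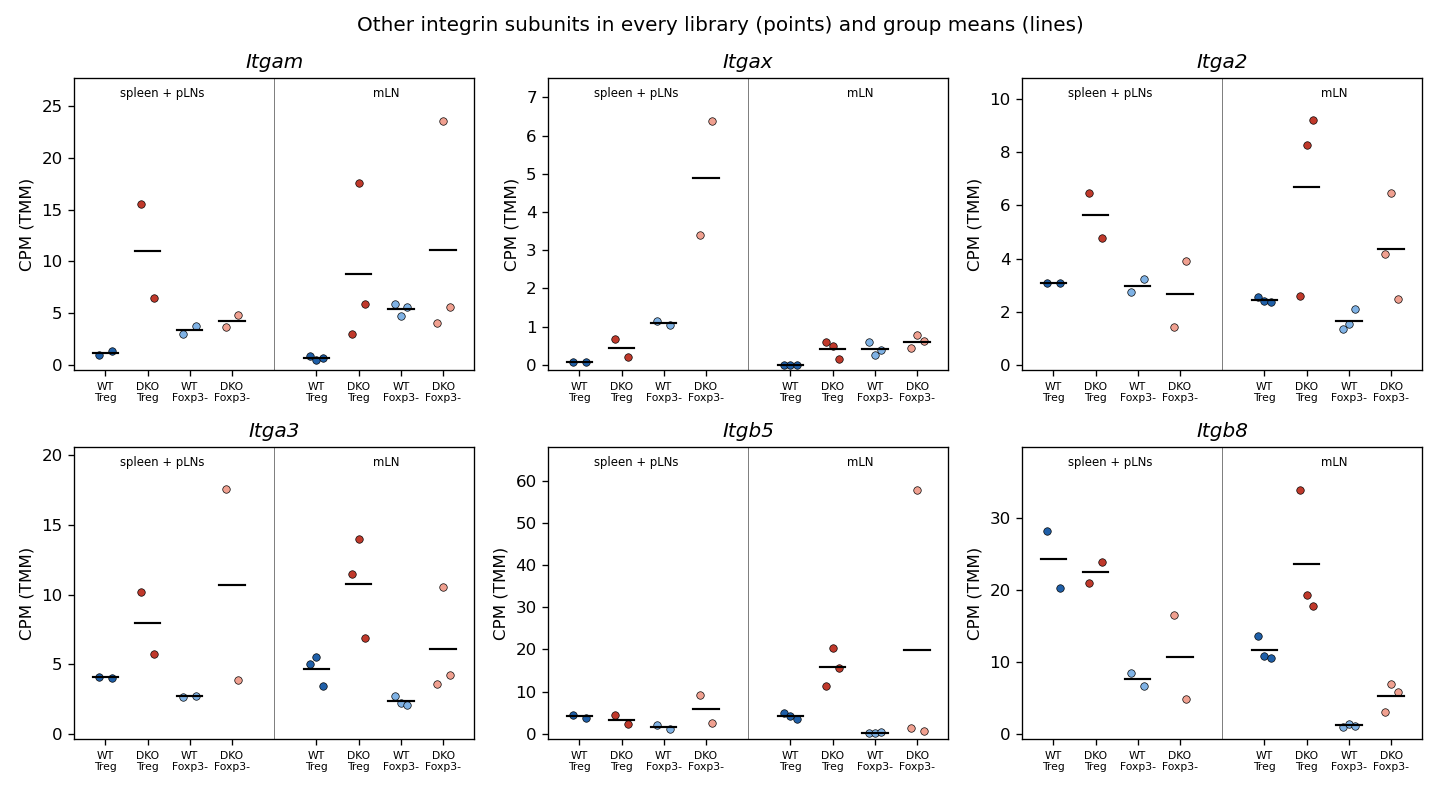
Level of 6 integrin subunits outside the 9 members in every library, as CPM after TMM scaling (vertical axis, linear), by genotype and cell type in spleen and pLNs (left of the line) and mLN (right of it), with bars for group means. Itgam is at 2.979 CPM or more in all DKO Treg libraries and at 1.323 CPM or less in all WT Treg libraries, and the mean of Itgb5 in DKO CD4+Foxp3- T cells of mLN rests on 1 library at 57.70 CPM.

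Genes that work with integrins were counted on lists of tested genes. In DKO Treg cells of mLN, 8.5% of all genes tested rose and 3.43% fell, and the lists are described beside these shares without a test. Among 21 activators of integrins, such as talins, kindlins and Rap1, 1 was called between DKO and WT Treg cells of mLN: Tln2, a talin, at 2.81 against 0.264 CPM, which is below the level set for naming and was chosen after its value was seen. Of 19 adaptors at the cytoplasmic face, 2 rose and 1 fell: Bcar1 (13.3 against 0.328 CPM) and Vcl, which encodes vinculin (16.1 against 5.08 CPM), rose, and Tns1, a tensin, fell (12.1 against 47.5 CPM). Of 19 ligands and related genes, 5 rose and 1 fell. Lamc1, a laminin chain and so a part of ligands of the Itga6 receptors, rose from 68.4 to 144 CPM (log2 fold change 1.08, SE 0.35, adjusted p = 0.046), and Lrrc32, which holds latent TGF-beta at the Treg surface, fell from 128 to 52.7 CPM (log2 fold change −1.28, SE 0.26, adjusted p = 0.0046). The other four, Madcam1, Fn1, Spp1 and Tgfb3, were at most 7.92 CPM in DKO and were named after their values were seen.

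Of 14 homing genes 0 rose and 4 fell in DKO Treg cells of mLN, where 8.5% of all genes rose and 3.43% fell. The 4 were Ccr9, a gut homing receptor (14.2 against 103 CPM), Ccr7, which guides entry to lymph nodes (191 against 366 CPM), Selplg, a selectin ligand (365 against 670.4 CPM), and S1pr1, which guides exit from lymph nodes (292 against 491 CPM). Of 13 transcription factors 2 rose and 4 fell. Batf rose (135 against 68.7 CPM), and Prdm1 (14.2 against 35.7 CPM), Smad7 (46.6 against 101 CPM) and Rara, the retinoic acid receptor (29.8 against 61.1 CPM), fell. The median log2 fold change was −0.49 over the homing list and 0.00 over all genes. It was −0.39 over the 9 members, 1.20 over the 17 other integrin subunits and 0.21 over the 26 together. Of 11 membrane proteins that associate with integrins, Cd81 rose (214 against 68 CPM) and Cd226 fell (31.4 against 83.3 CPM). The same comparison in spleen and pLNs, where 1.14% of all genes rose and 0.605% fell, called 2 of 18 ligands as higher, Fn1 (10.2 against 0.223 CPM) and Madcam1, which was named after its value was seen. None of the activators, adaptors, associated proteins, factors or homing genes was called by edgeR there, with 6, 7, 5, 2 and 4 of them under an unadjusted p of 0.05 and 2, 1, 1, 1 and 0 called by DESeq2.

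In DKO CD4+Foxp3- T cells of mLN, 3.12% of all genes rose and 0.304% fell. There 3 of 19 ligands rose, Spp1, which encodes osteopontin, a ligand of alpha v and alpha 4 integrins (47.7 against 0.833 CPM), Tgfb3 (12.7 against 2.22 CPM) and Lamc1 (20.8 against 4.01 CPM). Of 14 homing genes Ccr4 rose (86.6 against 32.4 CPM) and Ccr9 fell (9.36 against 25.9 CPM). Among activators, adaptors, associated proteins and factors none was called by edgeR, with 3, 6, 3 and 3 under an unadjusted p of 0.05 and 0, 1, 1 and 1 called by DESeq2. In those of spleen and pLNs, where 0.77% of all genes rose and 0.0489% fell, Spp1 was called as well (499 against 19.6 CPM, log2 fold change 4.67, SE 0.96, adjusted p = 0.049), and Lrrc32, at 0.433 CPM in WT and 0 reads in DKO, was called as lower and named after its values were seen.

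Without both DKO libraries of the replicate that stood apart in plasma cell markers, 27 of the 28 calls of other subunits and list genes in mLN Treg cells held, and 7 of 7 did in mLN CD4+Foxp3- T cells. For spleen and pLNs, 3 of 3 held in Treg and 2 of 2 in CD4+Foxp3- T cells. Some log2 fold changes moved by over 1.5 times in fold. That of Spp1 in CD4+Foxp3- T cells went from 4.67 to 1.04 in spleen and pLNs. For mLN it went from 5.84 to 4.88, and in the same cells Lamc1 went from 2.38 to 1.59, Tgfb3 from 2.52 to 1.86 and Ccr4 from 1.42 to 0.71. In Treg cells Fn1 went from 4.01 to 2.88 in mLN. For spleen and pLNs it went from 5.49 to 3.88, and Madcam1 from 4.07 to 3.31.

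The genes whose log2 CPM went most like that of a member over the 12 mLN libraries were listed, as a description over libraries that share 4 groups and their scaling. For Itgae these were Icam1, a ligand of LFA-1 (r = 0.992), Dennd5a (0.987) and Syp (0.981), with r = 0.841, 0.971 and 0.898 over the 8 libraries of spleen and pLNs. For Itga6 they were Leprotl1 (0.978), Sema4b (0.969) and Synj1 (0.967), with 0.974, 0.894 and 0.520 in the other tissue. For Itga4 they were Zdhhc2 (0.930), Ahnak (0.922) and Prr13 (0.919), with −0.338, 0.506 and −0.266 in spleen and pLNs. For Itgal they were Sfxn3 (0.960), Golga7 (0.949) and Podnl1 (0.946), with 0.131, −0.507 and 0.727. Those of Itgb1 were Trp53inp1 (0.950), Runx2 (0.920) and Atp2b4 (0.905), with 0.555 and −0.124 for the first and the last and no value for Runx2. Those of Itgb2 were Ltb (0.974), Tgs1 (0.953) and Cd5 (0.952), with 0.710, 0.501 and 0.784. Those of Itgb7 were Tespa1 (0.905), Med28 (0.888) and Hps5 (0.878), with 0.706 and 0.312 for the last pair and no value for Tespa1.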

How the data were processed

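RNA of sorted T cells was measured by strand-specific, single-end mRNA sequencing. The authors used TopHat2 2.1.1 to align reads to mm9, keeping 1 alignment for each, and assigned these to RefSeq genes by strand with featureCounts of Subread 1.4.3-p1. The submitters' processing notes also name bcl2fastq 2.20.0.442, for part of the samples. The deposited counts are raw reads per gene symbol, and how the authors derived the deposited TPM is not given in the sources used here. In the spleen table some symbols had become dates and were read from the second column. Groups and replicate numbers came from the sample titles, and 0 columns were left without a sample.

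Counts were scaled by TMM and tested with edgeR 4.0.16 (quasi-likelihood test, limma 3.58.1, R 4.3.3), all 4 groups from 1 tissue fitted jointly without a replicate block, over genes with at least 1 count (16357 in spleen and pLNs, 16784 in mLN). All adjusted p-values are Benjamini-Hochberg values of this test over all genes. A gene was called at 0.05 and a fold of 1.5, the interaction at 0.05 alone. SE is the log2 fold change divided by the root of F. The procedure was tested on simulated data. Positions are those of GENCODE M1 on NCBIM37, the assembly of mm9. Figures were drawn with matplotlib 3.10.9 (Python 3.11.15).

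Deviations of mLN libraries from their group means were correlated across groups. Same-numbered Treg and CD4+Foxp3- libraries of a genotype gave 0.171 to 0.183 in WT and 0.11 to 0.39 in DKO mice. Differently numbered ones gave −0.108 to −0.0619 in WT and −0.357 to 0.16 in DKO mice. Same-numbered libraries were therefore taken as pairs within a genotype, but not across genotypes (−0.0483 to 0.114). DKO CD4+Foxp3- replicate 1 correlated more with DKO Treg replicate 3 (0.16) than with DKO Treg replicate 1 (0.11), so that pair is not certain. In spleen and pLNs there were 2 pairs per genotype, too few for this check. The biological coefficient of variation was 21.6% in spleen and pLNs and 17.7% in mLN. P-values rest on the spread between libraries within groups, estimated over the 4 groups of a tissue together. The main fit has no term for the pairs of same-numbered libraries, and fits with replicate blocks are among the alternatives.

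The members, the lists and the tests were chosen with earlier results of these data known. Named were the 9 members, other integrin subunits where called, at most 4 called genes per list and comparison with the largest change at 10 CPM or more, and for likeness the 3 genes with the highest r of log2 CPM (prior count 2) at 10 CPM or more (the likeness for Itgb3 and Itgav is not reported here). The alternatives were DESeq2 size factors, filterByExpr, DESeq2 1.42.0, only the groups compared, a robust prior, no fold minimum, replicate blocks, limma on log2(TPM + 1) and log2(TPM + 0.1), leaving out each replicate and, chosen after seeing the data, leaving out both DKO libraries of the replicate that stood apart. Reads from overlapping genes or close copies could not be separated.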

Additional observations from a re-analysis of the deposited data

Results flagged for a closer look

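The DKO effect differed between Treg and CD4+Foxp3- T cells of mLN for 2 members by the interaction test of edgeR: Itga6, with an interaction of −1.65 on the log2 scale (adjusted p = 0.0073), and Itgb1, with −0.88 (adjusted p = 0.019). For Itgb1 the effects had opposite signs, −0.39 in Treg and 0.48 in CD4+Foxp3- T cells, and in each cell type all 3 DKO libraries lay on one side of all 3 WT libraries. The Itga6 interaction was called under all alternatives, and that of Itgb1 was lost under 7 of 21.

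Effects were opposite between the tissues for 2 members, in the sense that every DKO library lay on one side of every WT library in one tissue and on the other side in the other, and neither difference was tested. Groups that do not overlap were common in CPM: in Treg cells 54.2% of all genes in spleen and pLNs and 40.5% in mLN, and in CD4+Foxp3- T cells 41.9% and 20.9%. Itgae in Treg cells had log2 fold changes of 0.39 in spleen and pLNs and −1.59 in mLN, and Itgb1 in CD4+Foxp3- T cells had −0.39 and 0.48. Of these 4 values only that of Itgae in mLN was called, since the fold of Itgb1 in mLN was under the minimum. Without DKO replicate 1 the values of spleen and pLNs were 0.03 for Itgae and −0.10 for Itgb1.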

How the results depend on the processing

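Of 447 values of single members under the alternatives, 375 kept their direction and their side of the threshold, 60 lost a call, 10 gained one and 2 changed direction. Both of the last concern Itgae in DKO against WT CD4+Foxp3- T cells of spleen and pLNs (−1.44 to 0.19 when leaving out each replicate, and 0.20 without both DKO replicate 1 libraries). Itgae between the cell types kept its call under all alternatives, as did in mLN Itga6 in Treg cells, between DKO cell types and in the interaction, Itgav between the cell types and Itgb1 between WT cell types.

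In spleen and pLNs, the count of members called between DKO and WT Treg cells went from 1 to 0 under filterByExpr and the robust prior and to 2 under DESeq2 and with only the groups compared. It ran from 0 (without either WT or DKO replicate 1) to 2 (without DKO replicate 2) when leaving out each replicate. That between WT cell types went from 1 to 2 under DESeq2 size factors, under DESeq2 and with the replicate block, and to 3 with only the groups compared. Leaving out each replicate gave 0 to 4 for CD4+Foxp3- T cells (4 without DKO replicate 2), 1 to 4 between DKO cell types (4 without DKO CD4+Foxp3- replicate 1) and 0 to 2 for the interaction (2 without DKO CD4+Foxp3- replicate 2). Without both DKO replicate 1 libraries the last 2 of these counts were 4 and 2. In mLN, the count for Treg cells went from 3 to 2 under DESeq2 and the robust prior, which lost Itgae, to 4 with only the groups compared and without the minimum of fold, and to 2 or 3 when leaving out each replicate. The count for CD4+Foxp3- T cells there went from 2 to 0 with only the groups compared and without both DKO replicate 2 libraries, and to 1 under the robust prior and with the replicate block. It ran from 0 (without DKO replicate 2 or any WT replicate) to 4 (without DKO replicate 1) when leaving out each replicate. Leaving out each replicate gave 3 to 5 between WT cell types (3 without WT CD4+Foxp3- replicate 3) and 1 to 2 for the interaction. The replicate block within genotype took Itgb3 from the calls between DKO cell types in mLN (4 to 3), and the blocks changed no other call of a member in their comparisons beyond those named here. The causes of these changes were not tested.

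Over all genes, spleen and pLNs had 285 calls between DKO and WT Treg cells against 24 (filterByExpr), 114 (robust prior), 648 (DESeq2), 1256 (only the groups compared), 1283 (without both DKO replicate 1 libraries) and 4 to 1696 (leaving out each replicate). CD4+Foxp3- T cells had 134 against 1, 19, 376, 1, 411 and 1 to 2751 in the same order. Calls between WT cell types numbered 654 against 379 (filterByExpr), 2060 (only the groups compared) and 360 (block within genotype), those between DKO cell types 617 against 342, 190 and 348, and 2091 without both DKO replicate 1 libraries. In mLN they numbered 575 for CD4+Foxp3- T cells against 2 (only the groups compared), 323 (robust prior), 929 (DESeq2) and 57 to 1453 (leaving out each replicate). They numbered 1885 between DKO cell types against 906 and 1687 between WT cell types against 2544 (only the groups compared). The interaction had 47 against 409 (DESeq2), 118 (block within genotype), 538 (without both DKO replicate 2 libraries) and 9 to 462 (leaving out each replicate). The interaction of spleen and pLNs had 1 against 11 (DESeq2) and 412 (without both DKO replicate 1 libraries). Without the minimum of fold, calls of mLN rose from 2001 to 3249 in Treg cells and from 1885 to 2956 between DKO cell types.

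Members whose DKO and WT Treg replicates did not overlap in spleen and pLNs numbered 4 in TPM, where 57.1% of all genes did not overlap, and 7 in CPM, where 54.2% did not. The share of Itgae in mLN Treg cells differed by −23.3 percentage points in TPM and −16.6 in CPM. Where leaving out a library left a group with 1, that library was assumed to vary like the others. With 2 or 3 mice in a group and DKO mice that differ, many values depend on 1 library, and levels near 0.3 CPM rest on about 3 reads.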
